A study of Mus musculus with 14 samples.

Results

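Biglycan (Bgn), decorin (Dcn), lumican (Lum), fibromodulin (Fmod), osteoglycin (Ogn), prolargin (Prelp), versican (Vcan), perlecan (Hspg2), Sparc and Sparcl1 encode proteins that mouse cells secrete into the extracellular matrix. These 10 genes, of 15964 named in the array annotation, were taken by name as a family of proteoglycans and Sparc proteins. The choice was made with earlier results of these data known. Every probe set annotated with 1 of these symbols alone was used, which gave 12 probe sets on array set A, 1 on set B and 5 on set C. RNA came from primary mouse spleen cells in 2 fractions, called FDC-E and FDC-D in the labels. FDC-E is enriched for follicular dendritic cells, the stromal cells that display antigen in B cell follicles, and FDC-D is depleted of them. Set A held FDC-D samples 1 and 2 and FDC-E samples 1, 2 and 3. Set C held these 5 samples as well, and set B held FDC-D 1 and 2 and FDC-E 2 and 3. The sources used here do not give the strain, age or treatment of the mice, the way the cells were isolated, or any pooling. Nothing says that the samples of a fraction came from separate animals, so a p-value covers the spread among the arrays, and that spread may be technical.

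Proteoglycans are proteins that carry long sulfated sugar chains called glycosaminoglycans. Biglycan, decorin, lumican, fibromodulin, prolargin and osteoglycin are small leucine-rich proteins, most of which bind collagen fibrils. Versican binds hyaluronan in loose matrix, and perlecan is the large heparan sulfate proteoglycan of basement membranes. Sparc and Sparcl1 are not proteoglycans but matricellular proteins that bind collagen and modulate how cells attach to matrix. In the spleen, such matrix is laid down by fibroblastic reticular cells and around vessels.

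For 7 of the 10 genes (Bgn, Fmod, Hspg2, Ogn, Prelp, Sparc and Vcan) a RefSeq promoter window of build GRCm38.p6 was at hand, from 250 bases before to 50 bases after the start. The 120 bases before the start are printed for Bgn and Sparc, which rose most among them, for Hspg2, which rose little, and for Fmod, which did not pass the test. They lie at chrX:73483481-73483600 (plus strand), chr11:55420081-55420200 (minus strand), chr4:137468683-137468802 (plus strand) and chr1:134037134-134037253 (plus strand), and are written from 5′ to 3′ on the gene's strand. Capitals mark GC boxes, the letters GGGCGG on either strand.
Bgn: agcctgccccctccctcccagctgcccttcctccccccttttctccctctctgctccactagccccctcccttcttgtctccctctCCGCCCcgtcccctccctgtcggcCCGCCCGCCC
Sparc: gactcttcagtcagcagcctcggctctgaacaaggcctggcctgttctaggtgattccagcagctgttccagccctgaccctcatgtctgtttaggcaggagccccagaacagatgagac
Hspg2: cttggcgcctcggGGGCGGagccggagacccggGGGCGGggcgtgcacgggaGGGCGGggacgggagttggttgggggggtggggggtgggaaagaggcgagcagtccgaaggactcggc
Fmod: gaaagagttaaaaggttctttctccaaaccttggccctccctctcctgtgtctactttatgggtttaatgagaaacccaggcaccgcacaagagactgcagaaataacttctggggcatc

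Over the whole window, Hspg2 held 5 GC boxes, Bgn held 3, a pair of which overlap, and Vcan held 2. The windows of Sparc, Fmod, Ogn and Prelp held none, so the genes with the largest rises, Bgn and Sparc, differed in this feature. A GC box was found in 35.7% of 32851 windows of 300 bases in all. TATAAA was found in the Ogn window alone, as 2 overlapping matches on opposite strands, against 13.6% of all windows. The AP-1 letters TGANTCA, searched on both strands like the others, were in none of the 7 and in 7.81% of all. The GC content of the 250 bases before the start was 64.4% for Bgn, 54% for Sparc, 70% for Hspg2 and 51.2% for Fmod, against a median of 52.4%. These matches describe the letters only.

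The values are linear intensities without detection calls, so a low value cannot be told from no RNA. Differences were tested with limma on log2(intensity + pseudocount), the pseudocount being 88.49 on set A, 81.23 on B and 53.13 on C, and folds on this scale come out too small for dim probe sets. Tests were limited to probe sets brighter than an array's 40th percentile on 2 or more arrays. A probe set passed at a Benjamini-Hochberg adjusted p under 0.05 over all tested probe sets of its set. In FDC-E, 6 of 8 tested probe sets rose on set A, 1 of 1 on set B and 1 of 2 on set C, and none fell. Of all tested probe sets, 23.1% rose and 17.9% fell on set A. The shares were 19.4% up and 17% down for set B, then 9.5% up and 8.73% down for set C. Under quantile normalization the split on set A was 18.3% higher and 25.9% lower. Scaling to the median array gave 18.5% higher and 24.9% lower. Taken by gene at the brightest tested probe set, Bgn, Dcn, Hspg2, Sparc and Sparcl1 rose and Fmod, Prelp and Vcan did not pass, where 19.2% of 12267 genes rose and 14.4% fell. The Sparc, Sparcl1 and Dcn probe sets of set A lay above the filter on FDC-E arrays only, and such probe sets were bound to differ. Bgn 167023_f_at of set C lay above the filter on all 3 FDC-E arrays and 1 FDC-D array, so it too was tested only through FDC-E. The members were also chosen with earlier results of these data known. For these reasons the counts over tested probe sets are given as a description only. The remaining 7 of the 18 probe sets, among them the only Lum and both Ogn probe sets, were too dim to be tested.

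**Figure D1:**
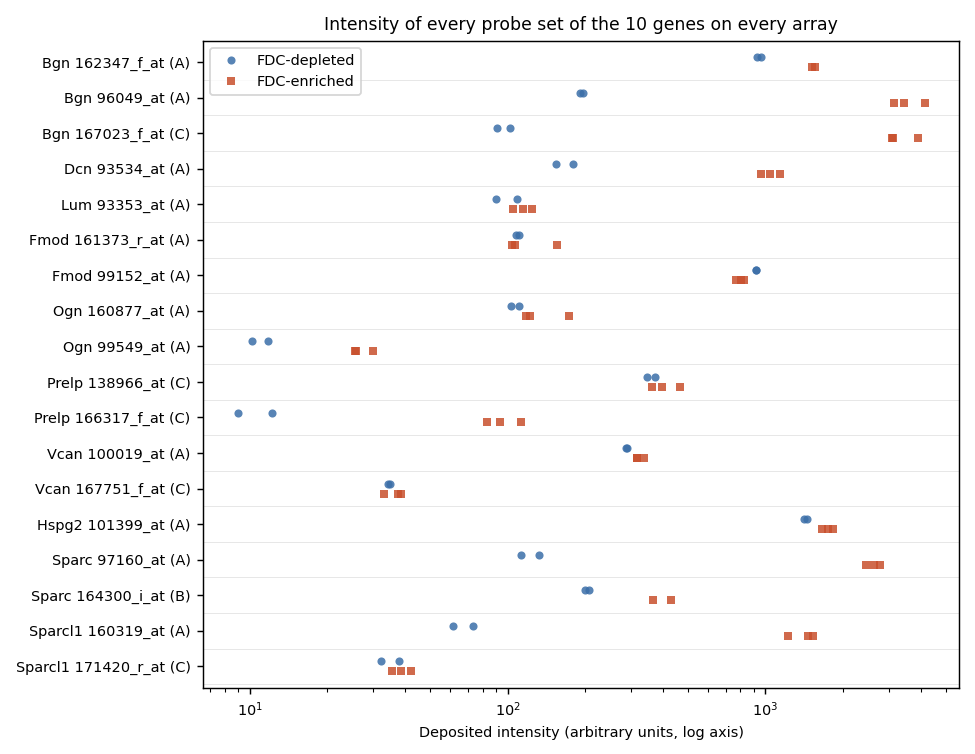
Deposited intensity (log axis, arbitrary units) of the 18 probe sets, 1 row each with the array set in brackets; circles are FDC-D arrays and squares FDC-E arrays. Bgn 96049_at, Bgn 167023_f_at, Sparc 97160_at, Sparcl1 160319_at, Dcn 93534_at and, at low intensity, Prelp 166317_f_at show wide gaps between the fractions, whereas Lum, Vcan 167751_f_at and Sparcl1 171420_r_at overlap.

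Bgn, the collagen-binding proteoglycan that can also signal through Toll-like receptors, showed the largest rise of the family at its set C probe set. That set has its own pseudocount, so the ranking against set A probe sets is not like for like. On set C, probe set 167023_f_at read 90.9 and 102 in FDC-D 1 and 2, and 3092, 3119 and 3890 in FDC-E 1, 2 and 3. All FDC-E arrays thus lay far above both FDC-D arrays, and FDC-E 3 was the highest. The rise was 22.8-fold (log2 fold change 4.51, SE 0.0994, limma adjusted p = 6.75e-08), and no other of the 7358 probe sets tested on set C rose more. Because this probe set passed the filter only through FDC-E, its p-value and rank are a description only. On set A, probe set 96049_at read 191 and 196 in FDC-D and 3161, 3439 and 4156 in FDC-E, again with FDC-E 3 on top. It rose 13-fold (log2 fold change 3.70, SE 0.115, adjusted p = 1.67e-07), behind 10 of 7895 tested probe sets.

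A further Bgn probe set on set A, 162347_f_at, behaved differently. It read 960 and 925 in FDC-D and 1558 and 1517 in FDC-E 1 and 3, with no value for FDC-E 2, so the fit rests on 4 arrays. Its rise of 1.58-fold (log2 fold change 0.66, 95% interval 0.46 to 0.86, adjusted p = 0.000663) lay below the interval of 3.43 to 3.96 of the other set A probe set. The 3 probe sets therefore agree in direction and not in size.

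Dcn, the closest relative of Bgn and a binder of collagen and of TGF-beta, rose as well. Probe set 93534_at on set A read 154 and 179 in FDC-D and 962, 1043 and 1139 in FDC-E. The fractions did not overlap, with group means of 166 ± 17.4 (SD, n = 2) and 1048 ± 88.3 (SD, n = 3). With the pseudocount added, the rise was 4.46-fold (log2 fold change 2.16, SE 0.0893, adjusted p = 6.46e-07). This rise was smaller than that of Bgn 96049_at, with a 95% interval of 1.95 to 2.36 that did not reach the interval of that probe set. It was larger than that of Bgn 162347_f_at.

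Sparc, also called osteonectin, read 113 and 133 in FDC-D and 2644, 2775 and 2449 in FDC-E at probe set 97160_at of set A. The 3 FDC-E arrays were close to each other and more than an order of magnitude above FDC-D. It rose 12.8-fold (log2 fold change 3.68, SE 0.0859, adjusted p = 6.65e-08). On set B, probe set 164300_i_at read 200 and 207 in FDC-D 1 and 2 and 365 and 428 in FDC-E 2 and 3. It rose 1.67-fold (log2 fold change 0.74, SE 0.0721, adjusted p = 2.39e-05), so both probe sets passed and their folds were far apart.

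Sparcl1, also called hevin, read 73.1 and 61.3 in FDC-D and 1219, 1526 and 1460 in FDC-E at probe set 160319_at of set A. FDC-E 1 was the lowest of the enriched arrays and still far above FDC-D. It rose 9.54-fold (log2 fold change 3.25, SE 0.102, adjusted p = 1.67e-07). Probe set 171420_r_at on set C lay below the filter and read 38 and 32.3 in FDC-D and 42.4, 35.5 and 38.5 in FDC-E, with overlapping fractions. The rise of Sparcl1 thus rests on 1 probe set.

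The sizes of these rises depend on how dim values are treated, because FDC-D was near the pseudocount. With a floor in place of the pseudocount, Sparc 97160_at rose 21.4-fold, Sparcl1 15.8-fold and Bgn on set C 34.8-fold. With a pseudocount at the 5th or 40th percentile Sparcl1 rose 14.8- or 6.2-fold. The ratios of the group means without any pseudocount were 21.4 for Sparc 97160_at, 20.9 for Sparcl1, 18.6 and 34.9 for Bgn 96049_at and 167023_f_at, and 6.3 for Dcn.

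Hspg2, the basement membrane proteoglycan perlecan, differed little between the fractions. Probe set 101399_at on set A read 1412 and 1448 in FDC-D and 1749, 1650 and 1827 in FDC-E. The fractions did not overlap, and the difference of 1.2-fold (log2 fold change 0.27, 95% interval 0.09 to 0.45) passed with adjusted p = 0.0255. This call was not stable. The adjusted p was 0.178 and 0.13 without FDC-D 1 or 2 and 0.0913 without FDC-E 3, with log2 fold changes of 0.25, 0.29 and 0.24 on fewer arrays. Quantile normalization gave an adjusted p of 0.118, and scaling to the median array gave 0.123.

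Vcan, Fmod and Prelp did not pass at their tested probe sets. Vcan, the large hyaluronan-binding proteoglycan, read 291 and 289 in FDC-D and 337, 317 and 316 in FDC-E at 100019_at of set A. The log2 fold change was 0.12 (95% interval -0.03 to 0.27, adjusted p = 0.182), although the fractions did not overlap. Prelp, which anchors basement membranes to the collagen beneath, read 374 and 347 in FDC-D and 362, 396 and 464 in FDC-E at 138966_at of set C. Its fractions overlapped, with a log2 fold change of 0.15 (interval -0.06 to 0.36, adjusted p = 0.305).

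Fmod, a collagen fibril organiser, was the only tested gene of the family with a lower value in FDC-E. Probe set 99152_at on set A read 915 and 920 in FDC-D and 828, 801 and 769 in FDC-E, without overlap. Its log2 fold change of -0.18 (interval -0.35 to -0.01) had adjusted p = 0.0809. It passed under quantile normalization (-0.30, adjusted p = 0.0142), with scaling to the median array (-0.27, 0.0173), with array weights (-0.22, 0.00355) and without FDC-E 1 (-0.20, 0.0336). Whether Fmod fell thus depended on the setting.

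**Figure D2:**
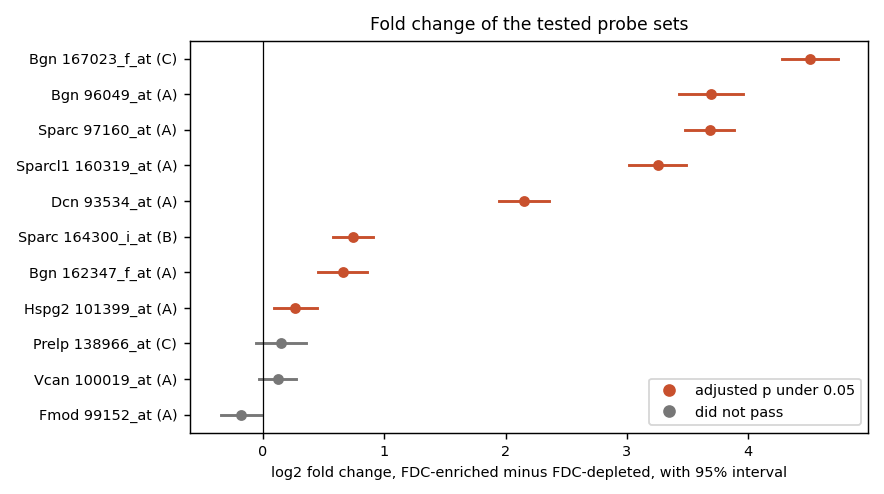
Log2 fold change (FDC-enriched minus FDC-depleted) with its 95% interval for the 11 tested probe sets, ordered by size; red passed at an adjusted p under 0.05 and grey did not. Bgn 167023_f_at, Bgn 96049_at, Sparc 97160_at, Sparcl1 and Dcn stand apart, Sparc 164300_i_at and Bgn 162347_f_at lie lower at 0.74 and 0.66, and the 3 lowest estimates, Prelp, Vcan and Fmod, did not pass.

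**Figure D3:**
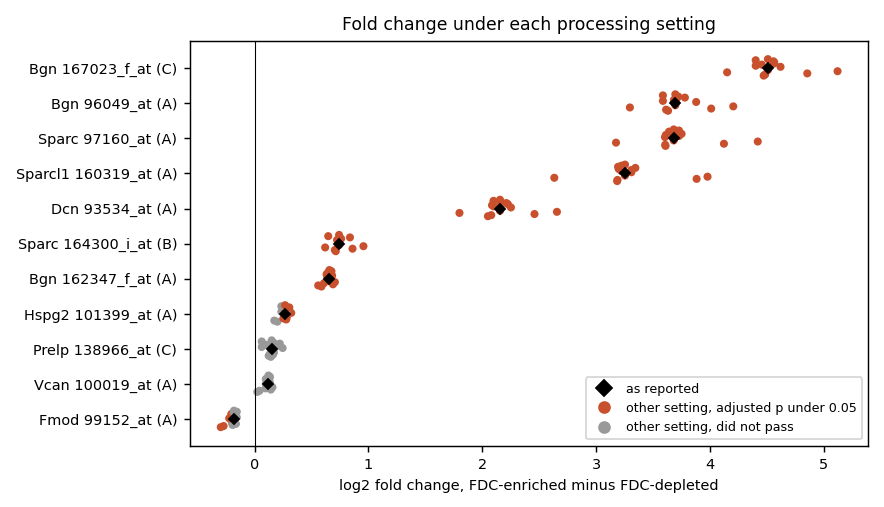
Log2 fold change (FDC-enriched minus FDC-depleted) of the 11 tested probe sets as reported (black diamonds) and under each other processing setting (circles; red passed at an adjusted p under 0.05, grey did not). Bgn, Sparc, Sparcl1 and Dcn passed throughout, Prelp and Vcan never did, and Hspg2 and Fmod passed under some settings.

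Of the 7 dim probe sets, 1 of Prelp and 1 of Ogn passed when no filter was applied. Prelp 166317_f_at on set C read 8.98 and 12.3 in FDC-D and 93.7, 83.4 and 113 in FDC-E, without overlap. With no filter it rose by 1.23 on the log2 scale (limma adjusted p = 1.35e-05), whereas the brighter Prelp probe set did not pass (adjusted p = 0.338 in that fit). Ogn, whose protein is also called mimecan, read 11.7 and 10.2 in FDC-D and 30, 25.9 and 25.7 in FDC-E at 99549_at. With no filter this gave a log2 fold change of 0.22 (adjusted p = 0.00179), at levels far below the filter. The other Ogn probe set, 160877_at, read 103 and 111 against 173, 118 and 122 (0.20, adjusted p = 0.193).

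Lum, a fibril-binding relative of Fmod, read 89.8 and 108 in FDC-D and 124, 105 and 115 in FDC-E. With no filter its log2 fold change was 0.12 (adjusted p = 0.269). The dim Fmod, Vcan and Sparcl1 probe sets had log2 fold changes of 0.08, 0.03 and 0.06 without the filter, and none of them passed (adjusted p = 0.606, 0.748 and 0.538). The fractions overlapped in each of these 4 probe sets.

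Among all tested probe sets of set A, 10 had a larger log2 fold change than Bgn 96049_at, 11 a larger one than Sparc, 39 than Sparcl1, 139 than Dcn, 829 than Bgn 162347_f_at and 1733 than Hspg2. The intervals of Bgn 96049_at and Sparc overlapped, as did those of Sparc and Sparcl1, so the order of these neighbours is not settled. Sparcl1 and Dcn were separated, and so were Dcn and the lower probe sets. Hspg2, Prelp, Vcan and Fmod formed a last stretch in which each interval overlapped the next.

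**Figure D4:**
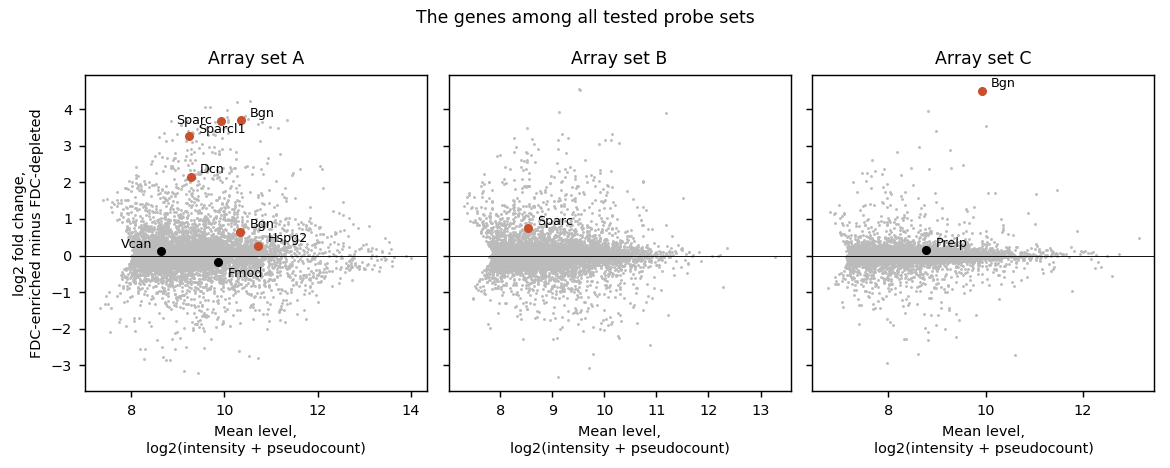
Log2 fold change against mean level, log2(intensity + pseudocount), of every tested probe set (grey) on array sets A, B and C, with the tested probe sets of the family in red where they passed and black where not. Bgn is the top point of set C, and Bgn 96049_at, Sparc and Sparcl1 lie near the upper edge of set A, while Bgn 162347_f_at lies well below them and Hspg2, Vcan and Fmod of set A and Prelp of set C lie in the bulk.

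The genes with the most similar profiles were found by the Euclidean distance between log2 values centred over the 5 arrays of a set. For Sparc on set A these were Cavin2, which encodes a protein of caveolae, at a distance of 0.132, the chemokine gene Cxcl10 (0.189) and the endothelial gene Eng (0.201). For Sparcl1 they were the growth factor gene Hbegf (0.138), the caveolin gene Cav1 (0.147) and Pls3 (0.163), and for Dcn they were Rcan1 (0.0589), the adhesion molecule gene Icam1 (0.101) and Ndrg1 (0.11). For Hspg2 they were Ero1a (0.0411), Vapb (0.0537) and Fzd2 (0.0542). On set C, Bgn had no close neighbour, the nearest being the endothelial transcription factor gene Sox17 at 0.664, the basement membrane collagen gene Col4a2 at 1.09 and Cavin2 at 1.28. With 2 fractions, this distance mostly reflects the size of the fold change.

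The relatives of the family were mixed. Of 4 other Sparc family genes tested, Fstl1, a secreted follistatin-like glycoprotein gene, rose 10.4-fold. Its mean was 65.7 ± 2.5 (SD, n = 2) in FDC-D and 1526 ± 160 (SD, n = 3) in FDC-E. The basement membrane gene Smoc2 rose 2.18-fold. The remaining Spock2 and Smoc1 had log2 fold changes of 0.02 and -0.02. None of 3 other small leucine-rich proteoglycan genes passed, with a median log2 fold change of -0.003, and with no filter 2 of this list rose. In the aggrecan family and its hyaluronan partners, 3 of 13 tested genes rose, with no gene falling. Stab2, the hyaluronan scavenger receptor gene of sinusoidal endothelium, rose 4.12-fold, the hyaluronan receptor gene Cd44 1.97-fold and the gene Itih3, whose protein attaches to hyaluronan, 1.38-fold. In this list 1 gene fell under either other scaling.

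Among 9 other heparan sulfate proteoglycan genes 3 rose and 6 did not pass, or 5 rose when each gene was read at its probe set of largest change. Tgfbr3, the TGF-beta co-receptor betaglycan, rose 4.92-fold, Col18a1, the basement membrane collagen that carries heparan sulfate, 4.36-fold, and the syndecan gene Sdc3 1.66-fold. A list of 8 other genes held 4 that rose and 2 that fell. Esm1, the endothelial proteoglycan endocan, rose 9.04-fold, its mean being 48.3 ± 4.64 (SD, n = 2) in FDC-D and 1090 ± 29.3 (SD, n = 2) in FDC-E. Cspg4, the pericyte proteoglycan NG2, rose 1.61-fold, and Tgfbi, which encodes an adhesion protein and no proteoglycan, 3.78-fold. Cd74, the MHC class II invariant chain that can carry chondroitin sulfate, fell 1.33-fold and did not pass without FDC-D 1 (adjusted p = 0.0771) or FDC-D 2 (0.0832), at log2 fold changes of -0.42 and -0.41 beside -0.41 with all arrays. Smc3, the other gene that fell, encodes a cohesin subunit, and Ptprz1, a receptor phosphatase gene, rose 1.18-fold; both were named after their values were seen. Under either other scaling 4 genes of this list fell.

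Of 32 tested genes for the synthesis and sulfation of glycosaminoglycan chains 13 rose, 3 fell and 16 did not pass, with a median log2 fold change of 0.15 beside 0.02 over all genes. Quantile normalization gave 11 higher and 4 lower in this list, and scaling to the median array 11 and 5. The heparan sulfate 6-O-sulfotransferase genes Hs6st2 and Hs6st1 rose 3.26- and 2.24-fold, and Papss2, which makes the sulfate donor, 2.28-fold. The 3-O-sulfotransferase gene Hs3st1 fell 2.44-fold. Its mean was 636 ± 128 (SD, n = 2) in FDC-D and 208 ± 38.1 (SD, n = 3) in FDC-E. The chain-building genes Chsy1 and Ext1, named after their values were seen, fell 2.07- and 1.36-fold. Of 19 genes for enzymes that cleave proteoglycans or their chains, 11 rose and 8 did not pass. The aggrecanase gene Adamts4 rose 1.93-fold, the membrane metalloprotease gene Mmp14 1.59-fold, and the lysosomal enzyme genes Ids and Hexa 1.74- and 1.79-fold. Hexa did not pass without FDC-D 1 (adjusted p = 0.198), FDC-E 2 (0.0867) or FDC-E 3 (0.0884), and without FDC-D 1 its log2 fold change was 0.30 in place of 0.84. Under either other scaling 9 of these cleaving enzyme genes rose and 2 fell.

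Of 23 genes for proteins that proteoglycans or Sparc bind, 15 rose and the other 8 did not pass, with a median log2 fold change of 0.45. The basement membrane collagen gene Col4a1 rose 18.3-fold, the growth factor gene Pdgfa 7.21-fold, and the fibrillar collagen genes Col1a2 and Col3a1 6.92- and 5.09-fold. Col1a1, Col5a1, Lama4 and Lamb1, named after their values were seen, did not pass. Their log2 fold changes were 0.14, 0.12, 0.03 and 0.01. These counts stand beside the 19.2% of all genes that rose. Several genes of the lists lay above the filter on FDC-E arrays only and were bound to differ. Among them were Fstl1, Esm1, Hs6st2, Papss2, Col4a1 and Col3a1. The list counts are therefore a description only.

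**Figure D5:**
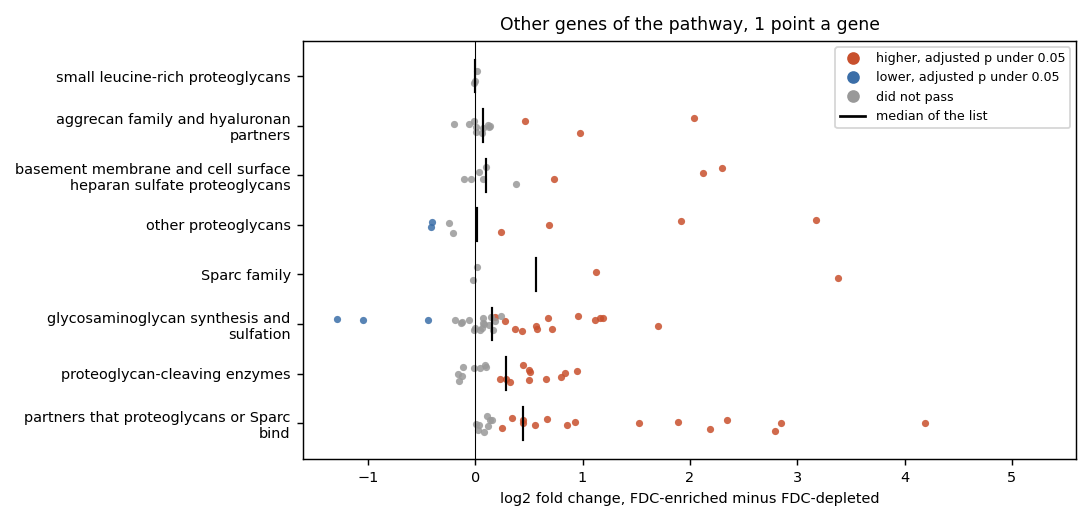
Log2 fold change (FDC-enriched minus FDC-depleted) of the tested genes of 8 lists around the family, 1 point a gene at its brightest probe set, with a black bar at the list's median; red rose, blue fell and grey did not pass. Col4a1, Fstl1 and Esm1 lie far to the right, and Hs3st1 and Chsy1 lie furthest to the left.

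Markers of several cell types moved with the fractions, beside Bgn, Dcn, Sparc and Sparcl1. Some lay above the filter in 1 fraction alone and were bound to differ. Examples are Cxcl13, Cdh5, Tie1 and Vwf in FDC-E and Cd3d, Il7r and Cd28 in FDC-D. The marker counts are therefore a description only. All 17 tested endothelial markers rose, with a median log2 fold change of 2.28, and on set A the summed intensity of 14 of them was 3660 and 3926 in FDC-D and 24175 to 26792 in FDC-E. Of 13 markers of fibroblastic and contractile stroma 11 rose and 1, Thy1, fell (median 1.35), with sums of 4567 and 4626 in FDC-D and 12714 to 14449 in FDC-E over 13 genes. Of 11 follicular dendritic cell markers 9 rose and 1, the complement receptor gene Cr2, fell (median 0.97). Only 8 of them rose after median-array scaling, and 7 after quantile normalization. Their sums were 6521 and 7532 in FDC-D against 23338 to 27756 in FDC-E. The largest rise among them was that of Cxcl13, the follicle chemokine, at 11.9-fold. Of 13 macrophage markers 12 rose, 11 under either other scaling, with sums of 11846 and 13861 against 25721 to 29895 over 12 genes. Vcam1 is counted in this list and among the follicular dendritic cell markers.

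Of 8 platelet and megakaryocyte markers 6 rose, 4 under either other scaling, with sums of 1747 and 1812 against 2568 to 2832 over 6 genes. Vwf, with means of 101 in FDC-D and 579 in FDC-E on set A, is counted here and among the endothelial markers. Of 3 mesothelial markers only Upk1b rose, 1.24-fold, and it did not pass without FDC-D 1 (adjusted p = 0.122), FDC-E 2 (0.0667) or FDC-E 3 (0.0827). With no filter 3 mesothelial genes rose, and the sums over 6 genes were 1129 and 1169 against 1246 to 1566. B cell markers fell in 10 of 11 cases (sums over 10 genes of 26738 and 27288 against 8049 to 10509) and T cell markers in 9 of 10 (7464 and 7819 against 3399 to 3855 over 9 genes). No listed marker with a probe set on set A was at 0 on any of its arrays, and 1 macrophage and 1 mesothelial gene lay under 100 on every array of set A. The part of any of these cell types in the rise of the matrix genes was not tested. In such bulk samples more cells of a type and more RNA per cell cannot be told apart.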

How the data were processed

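The 14 arrays (5 on set A, 4 on B, 5 on C) measured RNA of 5 samples. The authors deposited 1 table of linear intensity per array set; the sources used here do not say how the intensity values were summarised and scaled. Medians per array on set A were 244 and 250.8 in FDC-D and 264.7 to 279 in FDC-E. They were 200.2 and 202 against 206.9 and 208.8 on B, and 123 and 123.8 against 125.5 to 126.3 on C. Every FDC-E median thus lay above every FDC-D median of its set. FDC-E sample 2 had no value for 893 probe sets of set A. Array means (2% trimmed) differed by a factor of 1.08 at most within a set, so no rescaling was done. Precision is limited by how few arrays there are.

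Gene names came from the array annotation, and the gene table of GRCm38.p6, searched by Entrez identifier, left every symbol as it was. Each set was fitted alone with limma 3.58.1 (lmFit, eBayes with a trended prior) in R 4.3.3, two-sided, without its 66 array controls. The pseudocount was the 20th percentile of a set's intensities. The scripts were tested on simulated data. An exact permutation test of 1 gene could not go below 0.1 on A and C or 0.333 on B. Where a gene had several tested probe sets, the one with the highest level rank stood for it. The 8 pathway and 8 marker lists are described by counts and medians. Named are every probe set of the family, up to 4 passing genes of each pathway list and up to 3 of each marker list by size of change, and the 3 nearest profiles. The members and lists were chosen with earlier results of these data known. Alternatives changed the scaling, pseudocount, filter, prior, array weights, adjustment, block, probe set choice and naming, or left out 1 sample.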

Additional observations from a re-analysis of the deposited data

How the results depend on the processing

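Across 173 values of the 11 tested probe sets under the alternatives, 163 kept their direction and side of the threshold, 6 no longer passed (all Hspg2), 4 newly passed (all Fmod) and none reversed. Bgn, Dcn, Sparc and Sparcl1 passed under every alternative run, with log2 fold changes of 3.30 to 4.21 for Bgn 96049_at, 4.15 to 5.12 for Bgn on set C, 1.80 to 2.66 for Dcn, 3.17 to 4.42 for Sparc 97160_at and 2.63 to 3.98 for Sparcl1, the lowest with a pseudocount at the 40th percentile and the highest with a floor. Probe sets of the family that fell on set A numbered 1 in place of 0 under quantile normalization, scaling to the median array and array weights, and 0 to 1 when leaving out 1 sample; the same held by gene. This probe set was Fmod. With no filter 2 rose on set C in place of 1 and 7 on set A in place of 6, the added ones being Prelp 166317_f_at and Ogn 99549_at. Of 705 values of 46 named list genes, 696 kept their call and 9, of Cd74, Hexa and Upk1b, lost it. Sample numbers are shared between fractions, but the labels do not say that a number marks a shared animal or day. The deviations of same-numbered samples correlated at 0.0332 and 0.0607 on A, 0.15 on B, and -0.312 and -0.149 on C. With the number as a replicate block, possible on A and C only, Hspg2 was lost (0.24, adjusted p = 0.15). No other call of the family changed, and among the named list genes Upk1b was lost (0.29, adjusted p = 0.0672). FDC-E 3 shares its number with no FDC-D sample, so the fold changes of this block fit rest on samples 1 and 2 alone. For Hspg2 the log2 fold change was the same as without FDC-E 3. Fits that leave 1 array of a fraction on a set assume that it varies like the others. Without detection calls, probe sets near the low end of the scale give no firm fold.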
